A study of Mus musculus with 19 samples.

Results

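The 9 genes described here encode the CREB family transcription factors (Creb1, Crem and Atf1), the CREB-regulated transcription coactivators (Crtc1, Crtc2 and Crtc3) and the salt-inducible kinases (Sik1, Sik2 and Sik3). They were taken by name from a table of 51789 genes, and each of the 9 names matched 1 row through its Ensembl identifier. The values are read counts from ribosomal-RNA-depleted total RNA of 19 dorsal hippocampi, each from a separate male C57BL/6J mouse aged 2 to 4 months. In experiment 1 all mice had gone through SOR, which is spatial object recognition, a hippocampal memory task, and all carried tTA, the tetracycline-controlled transactivator. Of these, 5 also carried DN (tTA+/DN+) and 6 did not (tTA+/DN-). DN stands for a dominant-negative form of NR4A, a family of nuclear receptors that are induced by neuronal activity, and the series calls these mice Nr4ADN. In experiment 2 no mouse carried DN, 4 mice had gone through SOR (replicate 1 tTA-, replicates 2 to 4 tTA+) and 4 were kept in the homecage (replicates 1 and 2 tTA-, replicates 3 and 4 tTA+). The labels name neither the promoter that drives tTA nor the time between SOR and dissection.

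CREB1, CREM and ATF1 are basic leucine zipper (bZIP) proteins that bind DNA as pairs at the cAMP response element, whose full palindrome is TGACGTCA. Phosphorylation by kinases of the cAMP and calcium pathways lets CREB recruit the acetyltransferases CBP and p300. CRTCs bind the leucine zipper of CREB and are held in the cytoplasm, bound to 14-3-3 proteins, while the SIKs phosphorylate them. Calcium activates calcineurin, which dephosphorylates CRTCs, and cAMP activates protein kinase A, which inhibits the SIKs, so that CRTCs enter the nucleus. CREB and CRTC1 are known in hippocampal neurons for their part in gene induction after learning. Much of this control acts on phosphorylation and location of the proteins, which RNA counts do not measure.

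The RefSeq promoter table (assembly GRCm38.p6, 250 bases before to 50 after each gene's start) held 6 of the 9 genes. Crem, Crtc2 and Sik1 had no entry. TGACG, the first 5 letters of the element, was searched on both strands in windows of 300 bases, so that its reverse complement CGTCA also counted. It was found in 3 of the 6 promoters, those of Atf1, Sik2 and Sik3, and in 20.8% of all 32851 promoters of the table. The palindrome TGACGTCA, each match of which also holds TGACG on both strands, was in 0 of the 6 and in 1.79% of all promoters. A match is a run of letters and not a measured binding site. The stretches are shown because the element is the one the family binds, with those of Fos and Scg2, known CREB targets whose RNA is described further on. They are 5′ to 3′ on the gene's strand, and capitals mark the matches on either strand.
Atf1, chr15:100227754-100227803, plus strand: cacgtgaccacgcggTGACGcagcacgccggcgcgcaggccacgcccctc
Sik2, chr9:51009054-51009083, minus strand: ccggcccccTGACGtcggctcaCGTCAgcg
Sik3, chr9:46012679-46012777, plus strand: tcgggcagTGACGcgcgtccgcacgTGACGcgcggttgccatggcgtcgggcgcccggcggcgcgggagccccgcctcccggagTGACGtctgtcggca
Fos, chr12:85473750-85473839, plus strand: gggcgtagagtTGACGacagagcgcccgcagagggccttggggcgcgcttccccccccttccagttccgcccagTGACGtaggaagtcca
Scg2, chr1:79440076-79440105, minus strand: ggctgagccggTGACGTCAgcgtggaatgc
Sik3 held 3 matches, which began 133, 116 and 57 bases before its start. Atf1 held 1 match, 90 bases before the start. The first of the 2 matches of Sik2 lay across its start and the second just after it, on the other strand. Of 27 known CREB targets listed for this pathway, 19 had a promoter entry. These 19 genes had 27 promoters in the table, of which 18 held TGACG and 4 held TGACGTCA, that of Scg2 among them.

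The libraries held 22258159 to 66991576 counts. All 9 genes passed the filter on low counts in every fit, and their counts ran from 125 for Sik1 to 7791 for Creb1 in a single library. Markers of neurons and glia of the hippocampus were present in all groups, and no marker of the 10 lists examined was at 0 throughout any group. The summed level of 8 choroid plexus markers varied widely, between 19.8 and 4124 CPM (counts per 1000000 counts of the library, with library totals scaled by TMM) in experiment 1 and between 23.3 and 2187 CPM in experiment 2. DN replicate 2 and control replicates 1 and 2 of experiment 1 and SOR replicates 1 and 2 of experiment 2 had over 500 CPM. The DN and SOR comparisons were therefore also made without them, a choice made after seeing the data. For SOR this left only SOR replicates 3 and 4, both tTA+, against all homecage mice, of which replicates 1 and 2 were tTA-. The 8 markers of dentate granule cells summed to 303 to 417 CPM in the tTA+ mice of experiment 2 and to 579 to 667 CPM in the tTA- mice, ranges that did not overlap. In RNA from whole tissue, fewer cells of a type and less RNA per cell cannot be told apart. SOR replicate 3 of experiment 2, the smallest library, stood apart for Creb1.

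On a scale that divides by gene length, Sik3, Creb1 and Crtc1 were the most abundant members. The mean over the 19 libraries was 11.0 CPM per kb of annotated exon for Sik3 (9.59 to 12.2), 9.11 for Creb1 (6.51 to 10.2) and 5.73 for Crtc1 (3.69 to 6.83). Crem at 2.98, Atf1 at 2.79, Sik2 at 2.66 and Crtc2 at 2.41 CPM per kb followed close together, then Crtc3 at 1.72 and Sik1 at 1.31. Sik3 lay above Creb1, Creb1 above Crtc1, Crtc1 above Crem and Crtc2 above Crtc3 in 19 of 19 libraries. The order of the middle members was less even: Crem exceeded Atf1 in 14 libraries, Atf1 exceeded Sik2 in 12, Sik2 exceeded Crtc2 in 15 and Crtc3 exceeded Sik1 in 16. The whole ranges of neighbours in this order overlapped in each case. With the longest transcript as the length, a choice made after seeing the data, Sik2 moved above Atf1 and Crtc3 above Crtc2. Crtc1 then lay close to Crem, with means of 6.25 and 6.00 CPM per kb.

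**Figure D1:**
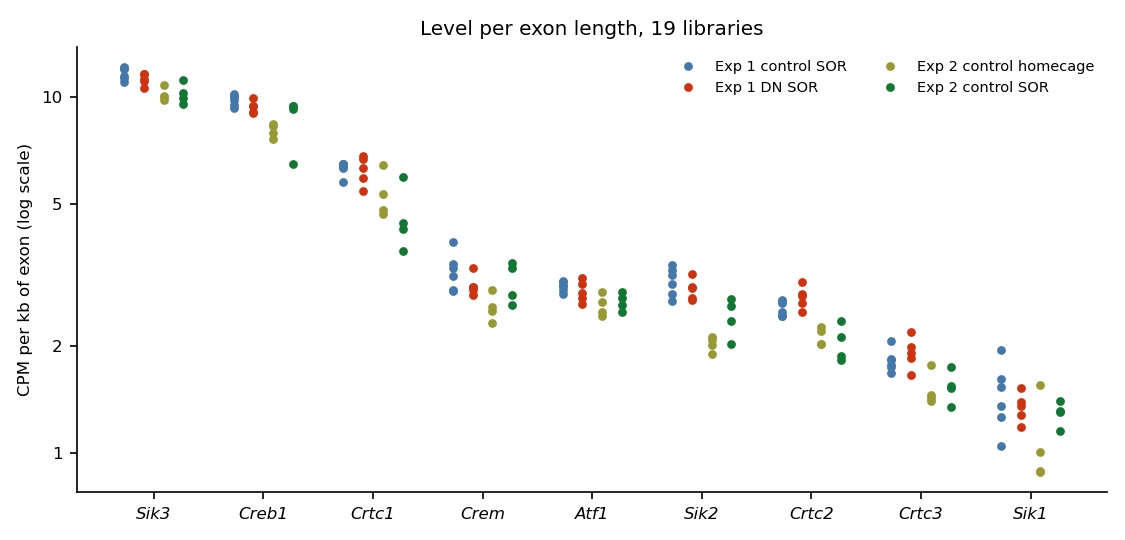
Level of each of the 9 genes per kb of annotated exon (CPM per kb) on a log axis, with a point for each of the 19 libraries, coloured by group. Sik3 (mean 11.0 CPM per kb), Creb1 (9.11) and Crtc1 (5.73) lie above the other 6 members, and Sik1 (1.31) has the lowest mean.

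Per kb of annotated exon, each family had 1 member with most of its RNA. Creb1 took 55.6% to 64.2% of the summed level per kb of the CREB family over the 19 libraries, against 18.4% to 23.4% for Crem and 16.7% to 22.2% for Atf1. Crtc1 took 53.5% to 61.9% of the CRTC total, with Crtc2 at 21.1% to 28.5% and Crtc3 at 15.4% to 20.2%. With the longest transcript as the length the means were 6.25 for Crtc1, 3.29 for Crtc2 and 3.31 CPM per kb for Crtc3. On that scale Crtc1 did not hold most of the CRTC total. Sik3 took 69.2% to 78.5% of the SIK total, Sik2 14.03% to 20.5% and Sik1 6.39% to 11.8%. Sik1, whose gene is itself a known CREB target, had the smallest share and the widest spread, with 2.21-fold between its highest and lowest library. Sik3 and Atf1 varied least, by 1.27-fold and 1.28-fold.

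None of the 9 genes was called in any of the 3 comparisons (edgeR quasi-likelihood test, adjusted p under 0.05 after Benjamini-Hochberg adjustment over all genes tested). In DN against control mice, 0 of 9 were called, where 0.00893% of 22391 genes were. In SOR against homecage, 0 of 9 were called, where 0.0897% of 22305 genes were. In tTA+ against tTA- mice, 0 of 9 were called, where 0.358% of 22904 genes were. With so few genes called, a count of 0 among 9 does not set the members apart from the rest. In none of the 3 did the groups of any member stand without overlap, a pattern found in 0.299%, 5.71% and 5.80% of all genes. A p that misses the threshold does not show equal levels, so the difference of each member is given with an interval of 2 standard errors to either side.

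**Figure D2:**
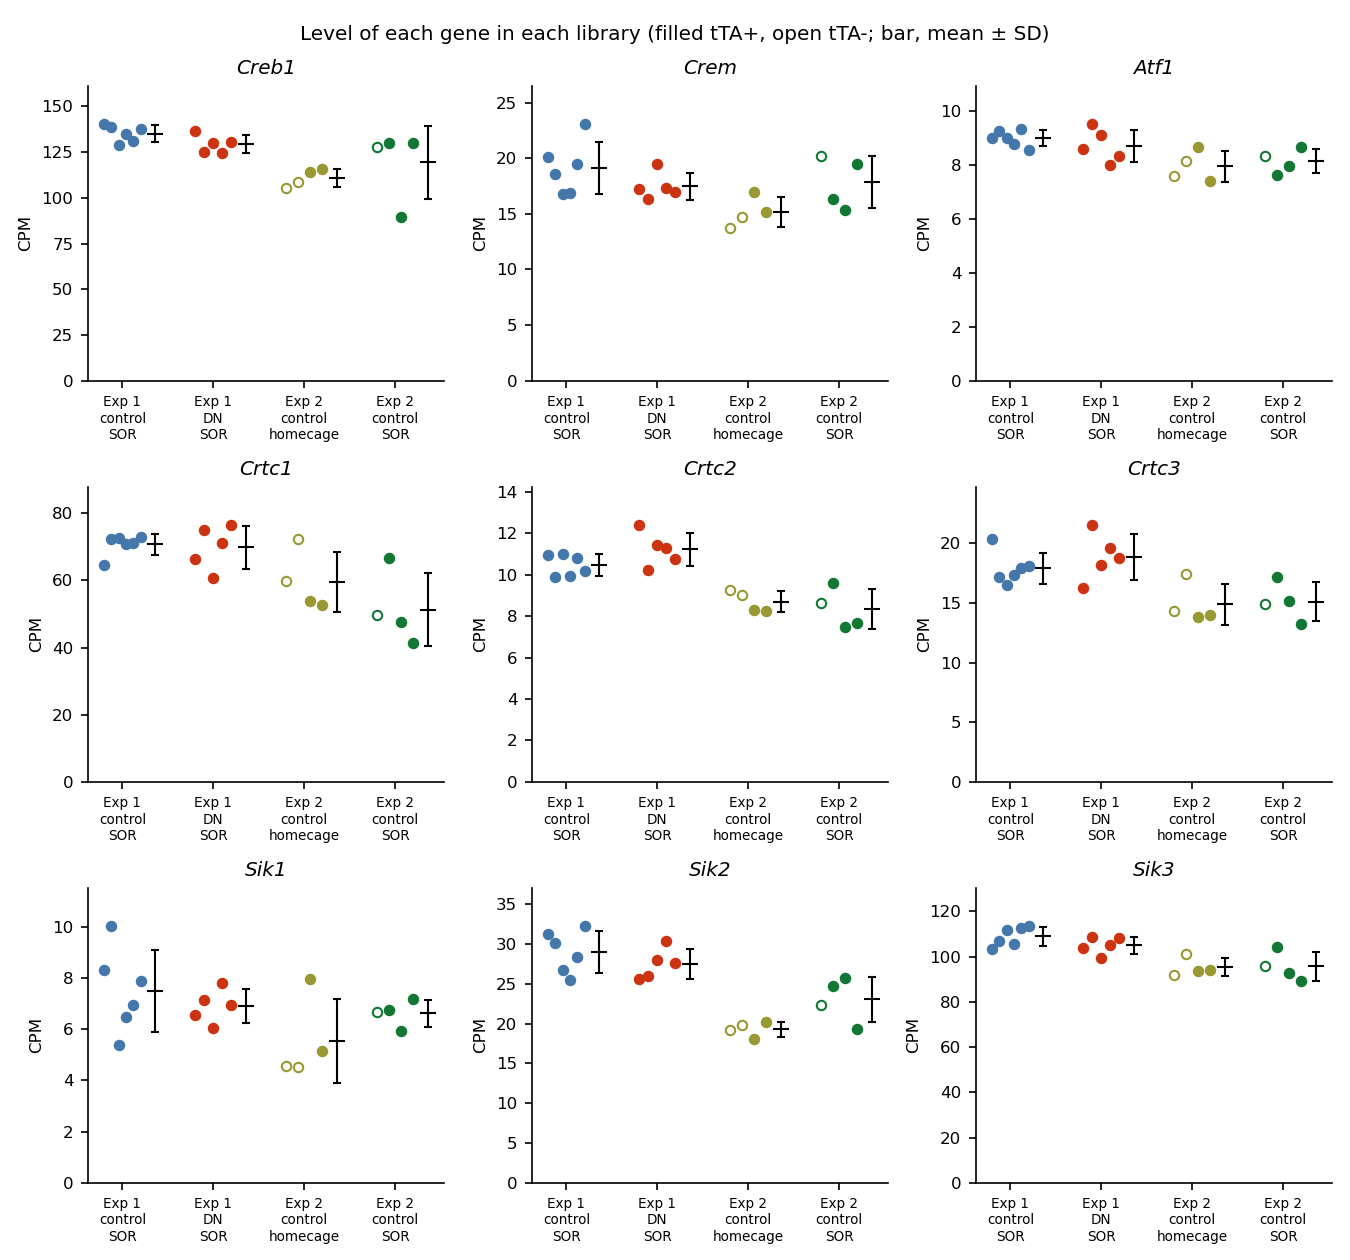
CPM (scaled by TMM within each experiment) of each gene in every library, by group, with filled points for tTA+ mice, open points for tTA- mice and bars for the mean ± SD of each group. Within each experiment the groups overlap for all 9 genes, and SOR replicate 3 of experiment 2 lies at 89.4 CPM for Creb1, below the other 3 libraries of its group.

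Creb1 encodes CREB itself (ENSMUSG00000025958.14, GRCm38 chr1:64532645-64604548, plus strand, 29 distinct annotated exons). The DN mice had 137, 125, 130.0, 125 and 130.4 CPM, and the control mice of experiment 1 had 140.1, 138, 129, 135, 131 and 138 CPM. The DN values lay at the lower end, and the groups overlapped between 129 and 137 CPM. With DN the log2 fold change was -0.06 ± 0.0340 (SE, adjusted p = 0.999), an interval of 0.913-fold to 1.004-fold. In experiment 2 the SOR mice had 128, 130.0, 89.4 and 130.2 CPM, and the homecage mice 105, 109, 114 and 116 CPM. Here 3 SOR libraries lay above all 4 homecage libraries and replicate 3 lay below them all. With SOR the log2 fold change was 0.11 ± 0.117 (SE, adjusted p = 0.781). Without SOR replicate 3 it was 0.22 ± 0.0636 (SE, unadjusted p = 0.00472, adjusted p = 0.372), among tTA+ mice alone it was 0.02, and without SOR replicates 1 and 2 it was -0.02. That library also had the highest summed level of CA3 pyramidal cell markers of its group, 597 CPM against 478 to 488 CPM, and whether this bears on Creb1 was not tested.

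Crem encodes activating and repressing bZIP proteins, among them the repressor ICER, which starts from a promoter inside the gene and is induced by cAMP (ENSMUSG00000063889.16, chr18:3266048-3337748, minus strand, 64 exons). Counts per gene do not separate ICER from the other transcripts. The DN mice had 17.2, 16.4, 19.5, 17.3 and 16.9 CPM, and the controls 20.1, 18.6, 16.8, 16.9, 19.5 and 23.0 CPM. After SOR the values were 20.2, 16.4, 15.4 and 19.5 CPM, and in the homecage 13.7, 14.7, 17.0 and 15.1 CPM. The DN mice were lower on average and the SOR mice higher, with overlap in both. The log2 fold change with DN was -0.13 ± 0.0741 (SE, adjusted p = 0.999, interval 0.825-fold to 1.01-fold). With SOR it was 0.24 ± 0.116 (SE, edgeR unadjusted p = 0.0635, adjusted p = 0.662), an interval of 1.004-fold to 1.39-fold. The DN difference was -0.07 without control replicate 6, whose level was the highest. Among tTA+ mice alone the SOR difference was 0.09. An exon of Crem shares 369 bases with the antisense gene Gm6225, which had 764 counts in all against 13349 for Crem.

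Atf1 encodes the remaining CREB family factor, which pairs with CREB1 and CREM (ENSMUSG00000023027.12, chr15:100227819-100261244, plus strand, 23 exons). The DN mice ranged from 8.01 to 9.51 CPM (median 8.60) and their controls from 8.56 to 9.34 CPM (median 9.01). In experiment 2, SOR libraries had 8.34, 7.63, 7.95 and 8.65 CPM and homecage libraries 7.61, 8.14, 8.69 and 7.41 CPM. The groups lay over each other in both experiments. The log2 fold change was -0.05 ± 0.0714 (SE) with DN and 0.03 ± 0.112 (SE) with SOR, with adjusted p of 0.999 and 0.944.

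Crtc1 encodes the main CRTC of neurons, which moves from synapse to nucleus with activity (ENSMUSG00000003575.13, chr8:70382355-70439579, minus strand, 23 exons). The DN mice had 66.5, 75.1, 60.8, 71.0 and 76.4 CPM, and the controls 64.5, 72.4, 72.8, 70.8, 71.2 and 72.8 CPM. The DN values fell on both sides of the control values, and the log2 fold change was -0.02 ± 0.0511 (SE, adjusted p = 0.999). The SOR mice had 49.7, 66.6, 47.7 and 41.3 CPM, and the homecage mice 60.0, 72.2, 53.9 and 52.5 CPM. Of the SOR mice, 3 lay below all homecage mice and replicate 2 lay among them. With SOR the difference was -0.22 ± 0.149 on the log2 scale (SE, adjusted p = 0.692, interval 0.701-fold to 1.06-fold). It was -0.37 without SOR replicate 2 (unadjusted p = 0.0145, adjusted p = 0.346), -0.43 without SOR replicates 1 and 2 (unadjusted p = 0.0176, adjusted p = 0.333), -0.11 without homecage replicate 2 and -0.04 among tTA+ mice alone. SOR replicate 2 also had the highest summed choroid plexus level of the group, 2187 CPM. SOR replicate 1, with 992 CPM of these markers, had 49.7 CPM of Crtc1. In experiment 1 the libraries over 500 CPM had 64.5 and 72.4 CPM of Crtc1 (control replicates 1 and 2) and 75.1 CPM (DN replicate 2). Whether choroid plexus level bears on Crtc1 was not tested.

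Crtc2 encodes the CRTC best known from fasting metabolism in liver (ENSMUSG00000027936.18, chr3:90254163-90264125, plus strand, 25 exons). The DN mice had 12.4, 10.2, 11.5, 11.3 and 10.8 CPM, and the controls 11.0, 9.90, 11.0, 9.93, 10.8 and 10.2 CPM. Of the DN mice, 3 lay above all controls, and the log2 fold change was 0.10 ± 0.0682 (SE, adjusted p = 0.999, interval 0.977-fold to 1.18-fold). In experiment 2 SOR libraries had 8.65, 9.59, 7.47 and 7.64 CPM and homecage libraries 9.25, 9.02, 8.29 and 8.25 CPM, with a log2 fold change of -0.06 ± 0.120 (SE, adjusted p = 0.895). The SOR mice spread to both sides of the homecage mice. The difference ran from -0.01 without SOR replicate 3 to -0.13 without SOR replicate 2, and was -0.21 without SOR replicates 1 and 2.

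Crtc3 encodes the third CRTC, known from adipose tissue (ENSMUSG00000030527.15, chr7:80586627-80688877, minus strand, 23 exons). The DN mice ranged from 16.3 to 21.5 CPM (median 18.8) and the controls from 16.5 to 20.4 CPM (median 17.7). SOR libraries had 14.9, 17.2, 15.2 and 13.2 CPM, and homecage libraries 14.3, 17.4, 13.8 and 14.01 CPM, so that replicate 2 was the highest in both groups. The log2 fold change was 0.08 ± 0.0681 (SE) with DN and 0.02 ± 0.116 (SE) with SOR, with adjusted p of 0.999 and 0.961. The groups overlapped over most of their range in both.

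Sik1 encodes the SIK whose RNA is induced by cAMP and depolarisation (ENSMUSG00000024042.6, chr17:31844250-31855804, minus strand, 20 exons). The DN mice had 6.56, 7.14, 6.04, 7.81 and 6.94 CPM, all within the range of the controls, 8.30, 10.02, 5.37, 6.46, 6.95 and 7.88 CPM. The log2 fold change was -0.12 ± 0.127 (SE, adjusted p = 0.999, interval 0.774-fold to 1.10-fold). Without control replicate 2 it was -0.01, without control replicate 3 it was -0.20, and without the 3 libraries of high choroid plexus level it was 0.05. SOR mice had 6.68, 6.73, 5.91 and 7.19 CPM, and homecage mice 4.56, 4.52, 7.95 and 5.15 CPM. Each SOR value exceeded 3 of the homecage values and lay below homecage replicate 3, and the log2 fold change was 0.25 ± 0.187 (SE, adjusted p = 0.704, interval 0.918-fold to 1.54-fold), and 0.48 ± 0.149 (SE) without homecage replicate 3 (unadjusted p = 0.00840, adjusted p = 0.739). Among tTA+ mice alone it was 0.01.

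Sik2 encodes a SIK that restrains CREB-dependent transcription in neurons (ENSMUSG00000037112.16, chr9:50892801-51009073, minus strand, 29 exons). It was the only member with an unadjusted p under 0.05 in any of the 3 comparisons, that of SOR, where 7.60% of all genes had one. The SOR mice had 22.3, 24.7, 25.8 and 19.3 CPM, and the homecage mice 19.1, 19.8, 18.1 and 20.2 CPM. Of the SOR mice, 3 lay above all homecage mice and replicate 4 lay among them. The log2 fold change was 0.25 ± 0.106 (SE, unadjusted p = 0.0344, adjusted p = 0.637), an interval of 1.03-fold to 1.38-fold. With each library left out in turn it ran from 0.20 to 0.33, and among tTA+ mice alone it was 0.28. In experiment 1 the DN mice had 25.6, 25.9, 28.0, 30.4 and 27.7 CPM and the controls 31.3, 30.1, 26.7, 25.5, 28.4 and 32.2 CPM, with a log2 fold change of -0.07 ± 0.0614 (SE, adjusted p = 0.999). An exon at the 3′ end of Sik2 overlaps one of Ppp2r1b, a phosphatase subunit gene on the other strand, by 1429 bases. Ppp2r1b had 15722 counts in all against 18854 for Sik2, and with the use of strand not given in the sources used here, reads of the 2 genes cannot be told apart there.

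Sik3 encodes the most abundant SIK of these samples, known from the control of sleep need (ENSMUSG00000034135.15, chr9:46012820-46224194, plus strand, 35 exons). The DN mice had 104, 109, 99.4, 105 and 108 CPM, and the controls 103, 107, 112, 106, 113 and 113 CPM. The DN values lay at the lower end, with overlap, and the log2 fold change was -0.05 ± 0.0352 (SE, adjusted p = 0.999). SOR libraries had 96.0, 104, 93.0 and 89.4 CPM, and homecage libraries 91.9, 101, 93.7 and 94.3 CPM. These lay over each other, with a log2 fold change of 0.01 ± 0.0784 (SE, adjusted p = 0.982).

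**Figure D3:**
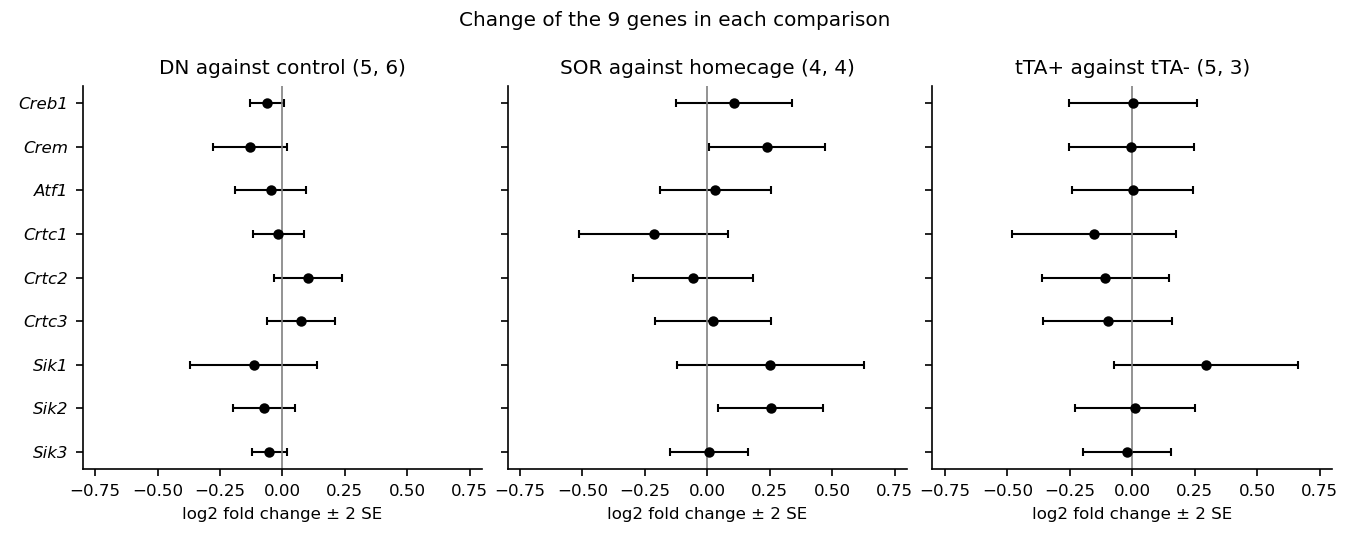
Log2 fold change of each gene in the 3 comparisons, with bars for 2 standard errors to either side. The DN values lie between -0.13 and 0.10, the SOR values between -0.22 and 0.25 and the tTA values between -0.15 and 0.30, and none was called.

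Across the family the DN differences were small: 7 members were lower and 2, Crtc2 and Crtc3, were higher, with a median log2 fold change of -0.05 against 0.00 over all genes tested. The intervals of all 9 lay between 0.774-fold and 1.18-fold. With single libraries left out the DN values ran from -0.08 to -0.02 for Atf1, from 0.06 to 0.13 for Crtc2, from 0.02 to 0.12 for Crtc3 and from -0.11 to -0.04 for Sik2. Without the 3 libraries of high choroid plexus level Sik2 had -0.01, Creb1 -0.03, Crtc1 -0.07 and Sik3 -0.09. With SOR 7 members were higher and 2, Crtc1 and Crtc2, were lower, with a median of 0.03 against 0.01 over all genes. Crem, Sik1 and Sik2 had the largest positive values there (0.24, 0.25 and 0.25) and Crtc1 the largest negative one. Among tTA+ mice, of which 3 had gone through SOR and 2 had not, the values were 0.09 for Crem, 0.01 for Sik1, 0.28 for Sik2 and -0.04 for Crtc1. tTA genotype was unbalanced between the groups.

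**Figure D4:**
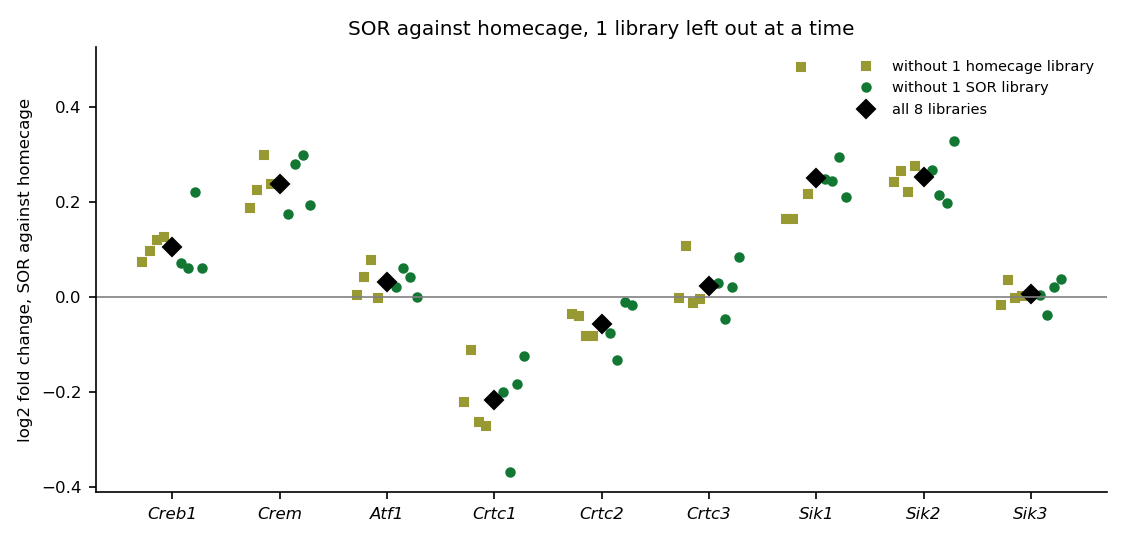
Log2 fold change of each gene with SOR against homecage when each homecage library (squares) or SOR library (circles) is left out in turn, beside the value with all 8 libraries (diamonds). Creb1 moves from 0.11 to 0.22 without SOR replicate 3 and Sik1 from 0.25 to 0.48 without homecage replicate 3.

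The tTA+ mice of experiment 2 were compared with the tTA- mice, 5 against 3, with exposure in the model. The 9 log2 fold changes had a median of -0.00 against 0.01 over all genes, with 4 higher and 5 lower, and each had an adjusted p of 0.9999. Sik1 had the largest, 0.30 ± 0.184 (SE, interval 0.951-fold to 1.58-fold), from 6.59 ± 1.09 CPM (SD, n = 5) in tTA+ and 5.25 ± 1.23 CPM (SD, n = 3) in tTA- mice. It was 0.08 without homecage replicate 3 and 0.54 without SOR replicate 1. Crtc1 had -0.15 ± 0.164 (SE), from 52.4 ± 9.34 CPM (SD, n = 5) and 60.6 ± 11.3 CPM (SD, n = 3), and ran from -0.31 without SOR replicate 1 to -0.04 without homecage replicate 2. Creb1 (0.00), Crem (-0.00), Atf1 (0.00) and Sik2 (0.01) were closest to 0. Markers of several cell types differed in the same comparison. Of the 8 granule cell markers 5 were called lower and 1, Tdo2, higher (0.88, edgeR adjusted p = 0.00656). The CA3 marker Npy2r was called lower (-1.01, edgeR adjusted p = 0.00594). Of the 6 CA3 markers 4 were lower and 2 higher. Their summed level overlapped, at 468 to 597 CPM in tTA+ and 480 to 501 CPM in tTA- mice. All 8 oligodendrocyte markers (median 0.18), all 6 microglia markers (median 0.08) and all 6 interneuron markers (median 0.23) were on the higher side with none called. The part of these markers in the members' values was not tested.

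The kinases, phosphatases, coactivators and targets around the 9 genes were counted from 6 lists holding 90 genes, all of which were tested. With DN none of the 90 was called. The 20 cAMP and calcium kinases and phosphatases had a median log2 fold change of -0.03, with 4 higher and 16 lower. Their smallest p values belonged to Prkar2a, a regulatory subunit of protein kinase A (-0.10 ± 0.0423, SE, unadjusted p = 0.0272), and Adcy1, a calcium-activated adenylyl cyclase (-0.10 ± 0.0481, SE, unadjusted p = 0.0511). Among the 15 genes of LKB1, the kinase that activates SIKs, and its other target kinases, Nuak1 (-0.11) and Prkaa1 (-0.07) came first and neither reached an unadjusted p of 0.05. Hdac7, a class IIa histone deacetylase and SIK substrate, had 0.18 (unadjusted p = 0.0314) and Hdac4 -0.06. Of the 5 CREB coactivators, Taf4 had -0.08 and Ep300, which encodes p300, -0.04. Creb3l2, a bZIP factor of the endoplasmic reticulum, had -0.22 (unadjusted p = 0.0113) and Crebl2 -0.08. The adjusted p of each of these was 0.999 (edgeR).

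The 27 known CREB targets were mostly on the lower side with DN: 24 were lower and 3 higher, with a median of -0.18 and a range of -0.62 to 0.06. Over all 22391 genes 11191 were lower and 11200 higher. The 2 with the smallest p were the clock genes Per1 (-0.21, unadjusted p = 0.0130) and Per2 (-0.38, unadjusted p = 0.0161), each with an adjusted p of 0.999. These 2 were the only targets under an unadjusted p of 0.05, where 3.83% of all genes were. All 8 choroid plexus markers (median -0.88) and all 8 granule cell markers (median -0.11) were also lower with DN. Control replicates 1 and 2, with 4124 and 1350 CPM of choroid plexus markers, also had the highest Arc (213 and 300.4 CPM) and Fos (17.8 and 23.4 CPM) of the 11 mice. DN replicate 2, with 1646.5 CPM of choroid plexus markers, had the lowest Arc (84.7 CPM) and Fos (5.97 CPM) of the 11. Without these 3 libraries, the targets had a median of -0.04, with 19 lower and 8 higher. With a single library left out the median was smallest, at -0.12, without control replicate 2 or DN replicate 4. The lists were drawn up with earlier results of these data known, and targets of CREB that are induced together are not independent of each other.

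**Figure D5:**
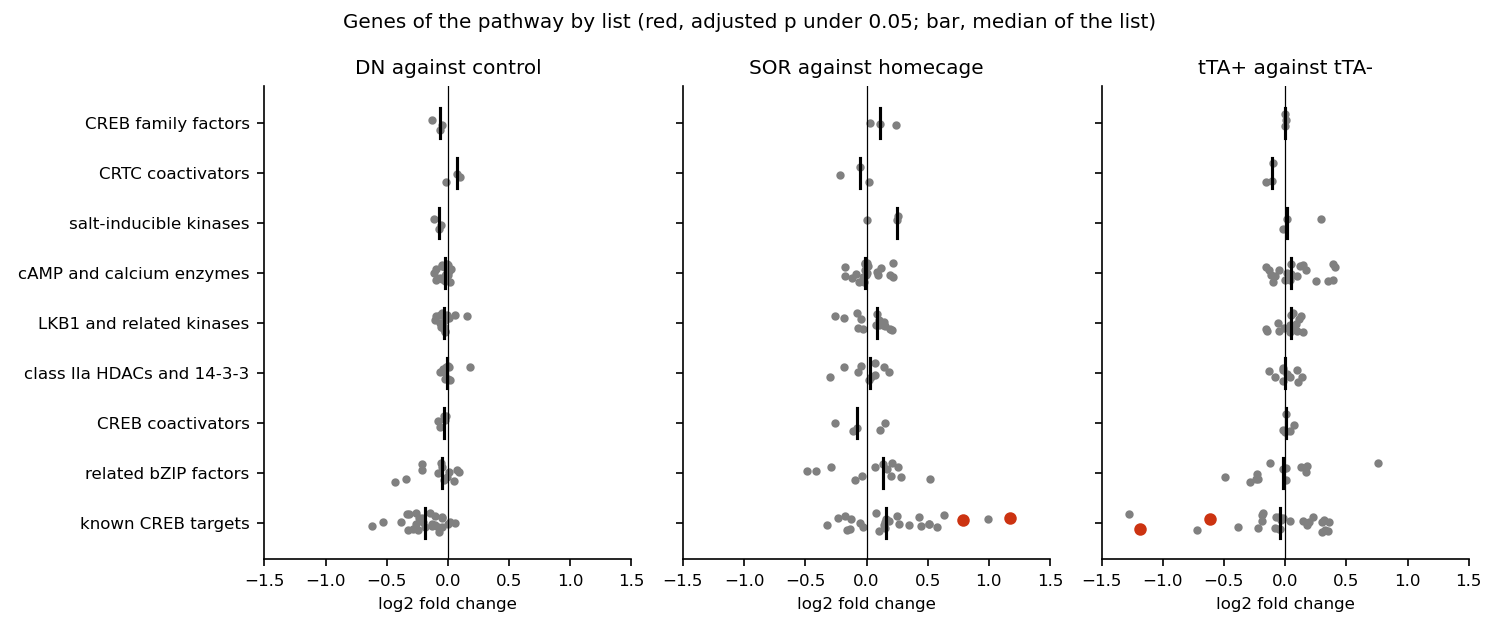
Log2 fold change of each gene of the 3 families of the 9 members and of the 6 pathway lists in the 3 comparisons, with a vertical bar for each median and red points for called genes. The known CREB targets have a median of -0.18 with DN and 0.16 with SOR, while the other 5 pathway lists have medians between -0.08 and 0.13 in the 3 comparisons.

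With SOR 2 of the 27 targets were called, both higher, and 19 were higher and 8 lower, with a median of 0.16. Over all genes 0.0897% were called, each of them higher. All 8 choroid plexus markers (median 2.16) and all 8 oligodendrocyte markers (median 0.18) were higher as well, and their part was not tested. Arc, which encodes an activity-regulated protein of dendrites, had 143, 121, 132 and 125 CPM after SOR and 82.1, 69.1, 66.7 and 84.0 CPM in the homecage. Fos, a subunit of AP-1, had 9.01, 8.69, 9.27 and 10.7 CPM after SOR and 4.02, 2.82, 4.42 and 5.38 CPM in the homecage. The groups of both genes stood apart without overlap. Arc rose by 0.79 ± 0.0991 on the log2 scale (SE, edgeR adjusted p = 0.0131) and Fos by 1.17 ± 0.182 (SE, edgeR adjusted p = 0.0432). Arc was called in 10 and Fos in 5 of 17 alternatives, and both kept their direction in all 17. Among tTA+ mice alone Arc had 0.74 and Fos 0.96, each with an adjusted p of 0.998. Without SOR replicates 1 and 2, Arc had 0.77 (adjusted p = 0.288) and Fos 1.25 (adjusted p = 0.333), and 19 targets were again higher, with a median of 0.25. The median was 0.11 without SOR replicate 3 and 0.26 among tTA+ mice alone. DESeq2 called 6 targets, and with single libraries left out 0 to 2 were called, with 0 without SOR replicate 1 or homecage replicate 1, 2 or 3 and 1 without SOR replicate 2 or homecage replicate 4. In all, 10 targets had an unadjusted p under 0.05, and all 10 were higher, a direction and threshold met by 3.67% of all genes. None of the 9 regulators was called in the same comparison, in which Arc and Fos were.

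In the other lists no gene was called with SOR. Camkk1, a kinase upstream of CaMK4, had 0.22 (unadjusted p = 0.0430) and Prkar1b 0.19. Of the kinases LKB1 activates, Snrk had 0.19 (unadjusted p = 0.0351) and Prkaa2 -0.26 (unadjusted p = 0.0423). The class IIa deacetylases Hdac7 and Hdac9 had -0.30 and -0.18 (unadjusted p = 0.0407 and 0.0435). Crebbp, which encodes CBP, had -0.26 (unadjusted p = 0.0541) and Taf4 0.15. Among related bZIP factors, Atf4, which responds to stress of translation, had 0.28 (unadjusted p = 0.0163) and Creb5 -0.49 (unadjusted p = 0.0284). The groups of Snrk, Mark3 (0.11), Hdac9, Taf4 and Atf4 did not overlap, as for 5.71% of all genes.

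In tTA+ against tTA- mice 2 of the 27 targets were called, both lower, where 0.249% of all genes were called lower. Scg2, the precursor of secretoneurin, fell by 0.61 on the log2 scale (SE 0.101, edgeR adjusted p = 0.0341), from 299 ± 16.3 CPM (SD, n = 3) to 198.9 ± 21.7 CPM (SD, n = 5). Penk, which encodes proenkephalin, fell by 1.18 (SE 0.201, edgeR adjusted p = 0.0414), from 21.6 ± 0.709 CPM (SD, n = 3) to 9.50 ± 2.48 CPM (SD, n = 5). The number of targets called was 4 without a filter on low counts, 4 with DESeq2, 5 with all 19 libraries in 1 fit, 3 without SOR replicate 2, 5 without SOR replicate 3 and 0 when any of the other 6 libraries was left out. Scg2 and Penk were each called in 7 of 14 alternatives and kept their direction in all, and with replicate number as a block neither was called, at -0.88 for Scg2 and -1.92 for Penk (Penk adjusted p = 0.891, Scg2 higher still). Over the whole list 11 targets were higher and 16 lower, with a median of -0.04, and without homecage replicate 2 or 3 these counts were 14 and 13. At an unadjusted p under 0.05, 5 targets were lower (Scg2, Penk, Pdyn, Ptgs2 and Bdnf) and 1 was higher, Dusp1, a phosphatase of MAP kinases (0.35, unadjusted p = 0.0284), where 5.71% of all genes in either direction had such a p. The groups of all 6 stood without overlap, as for 5.80% of all genes. Those beyond Scg2 and Penk were named after their values were seen. Of the 8 granule cell markers 5 were called lower and 1 higher in the same mice, and their part in these values was not tested. No gene of the other lists was called. Pde4b, a cAMP phosphodiesterase, had 0.41 (unadjusted p = 0.00156, adjusted p = 0.183) and Camk4, a CREB kinase, 0.39 (unadjusted p = 0.00543). Cab39 (0.15) and Strada (-0.16), partners of LKB1, Hdac5 (0.14), Hdac4 (-0.14), Kmt2a (0.07) and Nono (0.04) did not reach an unadjusted p of 0.05. Atf6 had -0.29 (unadjusted p = 0.0100) and Creb3l4 0.76 (unadjusted p = 0.0505).

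Each gene's variation from library to library was compared with that of 16852 genes, as Pearson's r of log2 CPM over the 19 libraries centred within each experiment. The libraries share extraction, depth and cell makeup, so these are descriptions. Creb1 was most like Nupl1 (r = 0.961), Ubxn2b (0.945) and Golph3 (0.942), the highest values of the 9. SOR replicate 3 of experiment 2 stood apart for Creb1, at 89.4 CPM. How far these r values rest on that library was not tested. Crem was most like Spred1 (0.832), Zfp760 (0.827) and Homer1 (0.823), and Atf1 like Mrpl54 (0.791), Sdc2 (0.695) and Snhg12 (0.695). Crtc1 was most like Dagla (0.922), Plxna4 (0.910) and Clmn (0.910), Crtc2 like Gm47218 (0.788) and Ddx60 (0.778), and Crtc3 like Flna (0.853), Antxr1 (0.830) and Slc43a2 (0.827). Sik1 was most like Ttc30a1 (0.876), Magt1 (0.829) and Ncbp2 (0.815), Sik2 like Zmynd8 (0.897), Uggt1 (0.883) and Znfx1 (0.858), and Sik3 like Zfp335 (0.806), Chrm1 (0.773) and Gm36445 (0.765). No gene named here appeared among the nearest of more than 1 member, and no member was among the nearest of another. Between members r ran from -0.489 (Crem with Crtc1) to 0.746 (Crtc1 with Sik3).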

How the data were processed

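The authors deposited whole-number counts per gene as 1 table of 51789 genes and 19 libraries. Per the labels' protocols, Trizol was used for extraction and a TruSeq kit with Ribo-Zero Gold for the libraries. The submitters' processing notes name STAR, SAMtools 1.6, featureCounts 1.4.4 and mm10. The annotation and the use of strand are not given in the sources used here, so overlapping genes may share counts. Symbols, positions and exon lengths came from GENCODE M21 (GRCm38), which held 51596 of the identifiers, and promoter sequences from RefSeq.

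Each experiment was fitted alone with edgeR 4.0.16 in R 4.3.3 (quasi-likelihood F test, two-sided, robust, TMM, filterByExpr). Adjusted p values are Benjamini-Hochberg values over all genes tested, and genes under 0.05 were called. The comparison of tTA genotypes held exposure as a term. The SE of a log2 fold change was taken as its size over the root of its F statistic. CPM values were computed from the deposited counts and scaled by TMM. Totals were 22258159 to 66991576 counts per library. With 3 to 6 mice a group the spread between mice limits the precision (biological coefficient of variation 0.0940 in experiment 1 and 0.169 in experiment 2).

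Named genes were the 9 members, called genes of the pathway lists (or the 2 with the smallest p) and the 3 genes nearest each member in r, among genes of mean CPM of at least 1; 1 of these is not reported here. Mark3, Tdo2, Npy2r, Dusp1, Pdyn, Ptgs2 and Bdnf were named after their values were seen. Members and lists were chosen with earlier results of these data known. Alternatives were other size factors, 2 other filters, DESeq2 1.42.0, all libraries in 1 fit, replicate number as a block, each library left out in turn and, for SOR, a term for tTA genotype or only the tTA+ mice. Leaving out libraries of over 500 CPM of choroid plexus markers was added after seeing the data.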

Additional observations from a re-analysis of the deposited data

Results flagged for a closer look

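In groups of 4 to 6 mice, a library was singled out where its gap to the nearest other took up more of the group's range than Dixon's 95% critical value. This held for 3 of the 36 gene and group pairs tested, and 1.8 would be flagged by chance. Creb1 in SOR replicate 3 of experiment 2 had 89.4 CPM, against 128 to 130.2 CPM in the other SOR mice. Crtc1 in control replicate 1 of experiment 1 had 64.5 CPM, against 70.8 to 72.8 CPM in the other 5 controls. Crtc3 in homecage replicate 2 of experiment 2 had 17.4 CPM, against 13.8 to 14.3 CPM in the other 3 homecage mice.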

How the results depend on the processing

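No member was called in any of the 18, 17 and 14 alternatives of the DN, SOR and tTA comparisons, and the DN comparison called 2 genes in all 18. The 20 genes called with SOR became 36 without a filter, 122 with DESeq2, 145 with all 19 libraries in 1 fit, 13 with the replicate block, 11 with tTA genotype as a covariate and 0 among tTA+ mice alone (edgeR, 374 at an unadjusted p under 0.05), and 1 with only libraries under 500 CPM of choroid plexus markers. Leaving out a library gave 1 to 50: 1 when homecage replicate 1, 2 or 3 was dropped, 7 for homecage replicate 4, 2 for SOR replicate 1, 13 for SOR replicate 2 and 50 for SOR replicate 3. The 82 genes of the tTA comparison became 265 without a filter, 253 with DESeq2, 383 in 1 fit and 0 with the replicate block (edgeR, 389 at an unadjusted p under 0.05). Leaving out a library gave 10 to 290 there: 22 to 25 when a homecage library was dropped, 10 for SOR replicate 1 and 290 for SOR replicate 3. The cause was not tested.

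Of 441 alternative log2 fold changes of the members, 40 changed sign. With only libraries under 500 CPM of choroid plexus markers Sik1 was 0.0483 with DN, and with SOR Creb1 was -0.0190, Crtc3 -0.0756 and Sik3 -0.0674. With SOR, Sik3 was -0.00199 without a filter and -0.0176 with at least 10 counts in every library, and Crtc3 was -0.00171 with the latter. That filter gave Creb1 -0.00706, Atf1 -0.0105 and Sik2 -0.00195 in the tTA comparison. The replicate block gave Atf1 -0.17, Crtc1 0.15, Crtc2 0.21 and Sik3 0.0577 there, where only replicate 2 held both genotypes. With a library left out, Crtc1 ran from -0.0493 to 0.0288 with DN. With SOR, Atf1 ran from -0.00109 to 0.0781, Crtc3 from -0.0452 to 0.107 and Sik3 from -0.0381 to 0.0387. In the tTA comparison Creb1 ran from -0.0315 to 0.105, Crem from -0.0846 to 0.177, Atf1 from -0.0650 to 0.0432, Sik2 from -0.0266 to 0.0538 and Sik3 from -0.0520 to 0.0176.

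Replicate numbers were not treated as pairs in the main fits. Deviations of same-numbered libraries correlated at -0.05 to 0.19 in experiment 1 and 0.05 to 0.39 in experiment 2. Of these libraries, 1 of 5 and 2 of 4 correlated best with their own number. Such correlations cannot show whether the mice were paired by design.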

Other observations

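Control mice that had gone through SOR were present in both experiments. Other differences between the experiments are not given in the sources used here, experiment cannot be told apart from them, and no test was made. With all 19 libraries scaled together by TMM, each of the 9 members had a higher mean in the 6 controls of experiment 1 than in the 4 SOR mice of experiment 2, while 51.0% of all 23716 genes did. The mean CPM of Crtc1 was 69.4 against 52.8, that of Sik2 28.5 against 23.7, that of Crtc2 10.3 against 8.58 and that of Creb1 133 against 123. Crem was closest, with 18.8 against 18.4. The direction was the same for all 9 with DESeq2's size factors and against the 3 tTA+ SOR mice alone.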
